A study of Mus musculus with 12 samples.

Results

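Lysine acetyltransferases other than MOF were examined as places where MOF itself sat on the genome of mouse visceral white adipose tissue. The 10 genes are Kat2a, Kat2b, Kat5, Kat6a, Kat6b, Kat7, Ep300, Crebbp, Hat1 and Ncoa3, of 21938 protein-coding genes on chromosomes 1 to 19, X and Y. They were chosen by name and located with the GENCODE mouse M21 annotation, and a MOF peak was assigned to a gene when it touched the gene body or came within 3 kb of any annotated start site. Of the 10 genes, 10 carried at least 1 Mof+/+ peak, 27 peaks in all, and 0 carried a Mof+/- peak. By the same rule 44.5% of all protein-coding genes had a Mof+/+ peak and 1.89% a Mof+/- peak, so the count of 0 in the second list is near that background.

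Acetyltransferases transfer an acetyl group to lysines of histones and of other proteins, and the modified chromatin is usually more open to transcription. MOF, encoded by Kat8, belongs to the MYST family with Kat5, Kat6a, Kat6b and Kat7. Kat2a and Kat2b are the related catalytic subunits of the SAGA and ATAC coactivator complexes, Ep300 and Crebbp encode the large coactivators p300 and CBP, Hat1 acetylates newly made histone H4, and Ncoa3 is a p160 coactivator that brings p300 and CBP to nuclear receptors. In fat, p300, CBP and the p160 proteins are known as coactivators of PPARγ, the master regulator of adipocytes.

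Chromatin immunoprecipitation and sequencing was performed on mice of the labelled strain C57BL/6, 8 weeks old and on a standard diet, either wild type (Mof+/+) or with a single intact copy of the gene in all tissues (Mof+/-). The labels give 12 libraries in 6 groups of 2, namely MOF ChIP, H3 ChIP and input DNA for each genotype, and the reporting summary of the study gives the same number, as littermates, whereas the design text speaks of 3 Mof+/- animals. The values analysed here were 1 MOF peak list per genotype, with no value per animal, so no difference between the genotypes was tested and no spread between replicates can be given. The Mof+/+ list held 19773 peaks with a median of 16 fragments over the summit, and the Mof+/- list held 731 with a median of 14. Marker genes were counted as a check of the labelled tissue: of 10 for each cell type, 8 for adipocytes, 10 for B and T cells, 1 for macrophages and 2 for endothelium had a Mof+/+ peak within 3 kb of a start site, where 42.8% of all coding genes had one, and the part of each cell type in the results was not tested. The adipocyte markers without one were Lep and Cidec.

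Sequences under 4 start-site peaks show the DNA at the 2 genes with the highest and the 2 with the lowest fold, each taken by its strongest start-site peak. Each is 150 bases of GRCm38, 5′ to 3′ on the strand of the gene, with CpG sites in capitals, and each is the stretch nearest to the summit that no untranslated region of the annotations covers.
Kat7, chr11:95309900-95310049, minus strand, from the first coding bases into the intron: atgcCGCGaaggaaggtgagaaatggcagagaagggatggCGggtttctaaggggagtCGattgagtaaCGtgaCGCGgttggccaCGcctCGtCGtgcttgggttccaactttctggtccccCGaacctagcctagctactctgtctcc
Ep300, chr15:81586629-81586778, plus strand, from the first coding bases into the intron: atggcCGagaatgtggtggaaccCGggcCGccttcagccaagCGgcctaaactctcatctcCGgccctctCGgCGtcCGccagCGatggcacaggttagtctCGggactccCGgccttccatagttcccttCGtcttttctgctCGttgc
Hat1, chr2:71389494-71389643, plus strand, over the summit in an intron: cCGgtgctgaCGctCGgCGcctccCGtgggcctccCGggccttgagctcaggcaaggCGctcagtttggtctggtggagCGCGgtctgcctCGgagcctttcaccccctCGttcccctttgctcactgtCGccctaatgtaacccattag
Ncoa3, chr2:165993088-165993237, plus strand, over the summit in an intron beside the start: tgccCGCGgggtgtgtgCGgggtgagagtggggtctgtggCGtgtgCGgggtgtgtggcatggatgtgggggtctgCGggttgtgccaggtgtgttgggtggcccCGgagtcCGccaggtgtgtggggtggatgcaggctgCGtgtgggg
The stretches held 9 CpG sites in Ncoa3, 11 in Kat7, 12 in Hat1 and 13 in Ep300. Their G and C content was 57.3% in Kat7, 62.0% in Ep300, 65.3% in Hat1 and 70.0% in Ncoa3. The Ep300 stretch lies 951 bp from its summit, because the summit is in the 5′ untranslated region.

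The peaks gathered at start sites. Of the 27 peaks, 14 came within 1 kb of an annotated start of the gene, with fold enrichments from 2.88 to 7.08, and 3 more within 3 kb, with 2.77 to 4.30. Fold enrichment is the peak caller's ratio of fragments at the summit to the local background, with 1 added to both. The lowest background, 3.52, was shared by 10023 of the 19773 Mof+/+ peaks and by the strongest start-site peaks of 6 of the 10 genes. The other 10 peaks lay in gene bodies, with folds from 2.55 to 3.32 and 11 to 15 fragments. Their median fold was 2.82, against 4.09 within 1 kb of a start, and the ranges overlapped. Within 3 kb of a start site, 10 of 10 genes had a Mof+/+ peak, against 42.8% of all protein-coding genes, and 0 had a Mof+/- peak, against 1.68%.

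**Figure D1:**
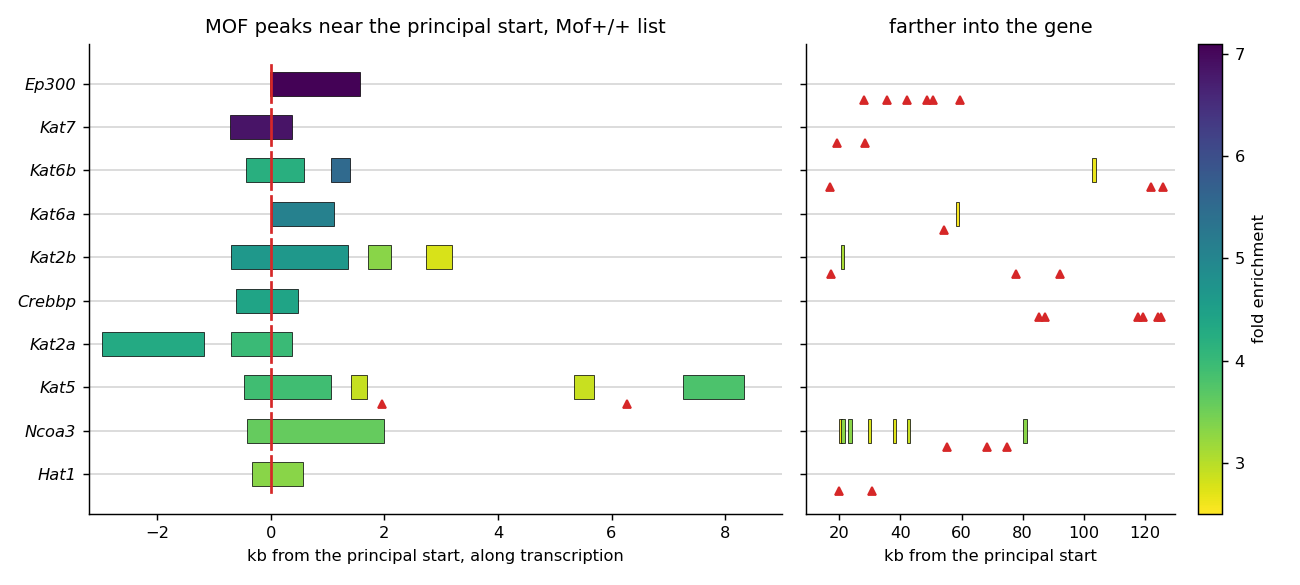
MOF peaks of the Mof+/+ list at the 10 genes, by distance in kb from the principal start along the direction of transcription, up to 9 kb (left) and farther (right, where a narrow peak is drawn at least 1.2 kb wide to be seen). Bars are peaks coloured by fold enrichment, the red line is the principal start, and red triangles are other groups of annotated starts (1 of Kat6b, upstream, is off the left edge); a peak lies over or beside each principal start, and Ncoa3 has 7 peaks deep in the gene.

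Peaks were compared with the annotated starts one by one. The annotated starts of the 10 genes fall into 39 groups, with starts 1 kb apart or less joined. Of the 10 groups that hold the principal start, 10 had a peak within 1 kb and 9 were overlapped by one, the peak of Kat6a beginning 16 bp after its starts. Of the other 29 groups 2 had a peak within 1 kb, and both are in the compact gene Kat5. Over the 9397 coding genes with a start-site peak, 90.4% of the principal groups and 13.9% of the 15689 other groups had a peak within 1 kb, so the 10 genes were near that background. Ep300 had 6 further groups of starts, the nearest 26.3 kb from its peak, and Crebbp had 6, the nearest 84.9 kb away. An upstream start of Kat6b was 17.9 kb from any Mof+/+ peak of that gene. Summits of the strongest start-site peaks lay downstream of the nearest start in 7 of 10 genes, against 60.1% of the 9397 coding genes with such a peak.

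Among the coactivators, Ep300 had the highest fold of the 10 genes. Its single peak, chr15:81585390-81586972, reached a fold of 7.08 with 31 fragments against a background of 3.52, and its summit lay 281 bp after the start, in the 5′ untranslated region. Of all coding genes with a start-site peak, 97.7% had a lower fold. Crebbp, the paralog of Ep300, also had a single peak, chr16:4213521-4214611, with a fold of 4.42 and 19 fragments, a value above 61.5% of those genes. The summit of the Crebbp peak lay 300 bp after the principal start, in an untranslated region, and its 13.5 CpG sites per 100 bp were the densest of all 27 peaks. The ratio of Ep300 to Crebbp in fragments over background was 1.63, with an exact conditional 95% interval of 0.89 to 3.06 that includes 1.

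Kat7, also known as HBO1, is a MYST enzyme that works with BRPF and JADE scaffolds. It had a single peak, chr11:95309873-95310959, with a fold of 6.85 and 35 fragments, the most of the 10 genes, against a background of 4.26. Its fold was above 97.1% of coding genes with a start-site peak, and its −log10 p-value of 20.72 was the largest of the 27. The start of Gm11520, an antisense RNA on the other strand, is 183 bp from a start of Kat7, so the peak cannot be assigned to only one of them. Ep300 likewise has the starts of 1110025M09Rik at 323 bp and of the miRNA gene Gm23880 at 87 bp, and Ncoa3 has the lincRNA Gm11464 at 119 bp.

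Kat5, the catalytic subunit of the TIP60 complex and the MYST paralog set beside Kat7, had lower folds spread over 4 peaks. The peak over its start, chr19:5609177-5610712, had a fold of 3.91 and 17 fragments, above 44.5% of coding genes with a start-site peak. A pair of narrow peaks inside the gene had folds of 2.88 and 2.90, with 12 and 14 fragments. The peak at the far end, chr19:5601901-5602970, had a fold of 3.80 and its summit lay in the coding sequence of the neighbour Rnaseh2c. It came within 996 bp of a Kat5 start and therefore met the rule. The ratio of Kat7 to Kat5 was 1.74, with an exact conditional 95% interval of 0.95 to 3.32.

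Kat6a and Kat6b are the MYST paralogs that also work with BRPF scaffolds. Kat6a had a peak from 16 bp after its nearest annotated start, chr8:22859565-22860655, with a fold of 5.09 and 22 fragments, and a weak one in an intron 58060 bp downstream, with a fold of 2.55 and 11 fragments. The Kat6a intronic value was the lowest of the 27. Kat6b had 2 peaks at its start region. The wider one, chr14:21499342-21500363, covered the principal start with a fold of 4.20 and 18 fragments, and the narrow one, chr14:21500849-21501176, covered further annotated starts with a fold of 5.53 and 24 fragments, its summit 1163 bp from the principal start. The last Kat6b peak lay 103020 bp into the gene with a fold of 2.65 and 11 fragments. The ratio of Kat6b to Kat6a was 1.09, with an exact conditional 95% interval of 0.59 to 2.04. It rests on the narrow Kat6b peak rather than on the one over the principal start.

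Kat2a and Kat2b encode GCN5 and PCAF. Kat2a had a peak over its start, chr11:100712089-100713160, with a fold of 3.98 and 17 fragments, and a stronger one upstream, chr11:100713638-100715430, with a fold of 4.30 and 20 fragments. The summit of the upstream peak lay in the coding sequence of Hspb9, 219 bp from the start of that gene. Kat2b had 3 peaks within 3 kb of its start, with folds of 4.65, 3.32 and 2.77 and 20, 14 and 12 fragments, falling in that order from the start into the first part of the gene. A further peak of Kat2b, 20764 bp downstream, had a fold of 3.10 and 13 fragments. The ratio of Kat2a to Kat2b was 0.90, with an exact conditional 95% interval of 0.46 to 1.77, and it rests on the Hspb9 peak.

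Hat1 had the lowest fold when each gene was taken by its strongest start-site peak. That peak covered the start, chr2:71388934-71389822, with a fold of 3.32 and 14 fragments, and 20.8% of coding genes with a start-site peak had a lower fold. At a q-value of at most 0.001 it was the 1 gene of the 10 left with no Mof+/+ peak.

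Ncoa3 had most of its peaks away from its starts. Its start was covered by the widest peak of the 27, chr2:165992225-165994637, of 2413 bp, with a fold of 3.58 and 20 fragments against the highest background of the 10 genes, 4.87. It had 7 more peaks away from its starts, with folds from 2.57 to 3.32 and 12 to 15 fragments. Of these, 6 lay between 19831 and 42276 bp after the start, and the last lay at the 3′ end over untranslated regions of both Ncoa3 and its neighbour Sulf2. In the whole annotation 0.643% of coding genes had 7 or more such peaks, and 2.07% of the 2747 genes within 1.5 times the length of Ncoa3 did. The p160 paralogs of Ncoa3 also had peaks away from starts. Ncoa2 had 4 Mof+/+ peaks by the rule, 1 of them within 3 kb of a start, and Ncoa1 had 3, 2 of them within 3 kb. Of the 10 acetyltransferase genes, 4 had at least 1 gene-body peak away from starts (Kat2b, Kat6a, Kat6b and Ncoa3), against 8.98% of all coding genes and 18.6% of genes near the length of Ncoa3.

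Start-site and gene-body peaks were compared in sequence. The 17 peaks within 3 kb of a start held from 1.28 to 13.5 CpG sites per 100 bp, with a median of 6.26, and the 10 in gene bodies held 0.341 to 3.74, with a median of 1.00. Repeats, as the genome file masks them, covered a median of 8.71% of the bases of the first, from 0 to 26.8%. In the second the median was 17.0%, from 3.07% to 80.0%. The ranges of both CpG sites and repeats overlapped.

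The order of the folds was Ep300, Kat7, Kat6b, Kat6a, Kat2b, Crebbp, Kat2a, Kat5, Ncoa3 and Hat1, and the counting intervals of neighbours in this order overlapped. The 95% Poisson intervals of fragments over background overlapped in 45 of 45 pairs. They run from 5.98 to 12.50 for Ep300 and from 2.17 to 6.67 for Hat1. Such overlap does not show that the genes of a pair are equal, and ratios were computed only for the paralog pairs. The median fold of the 10 was 4.54, against 3.98 over all coding genes with a start-site peak, and the median share of those genes with a lower fold was 65.1%. The intervals cover counting error only.

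**Figure D2:**
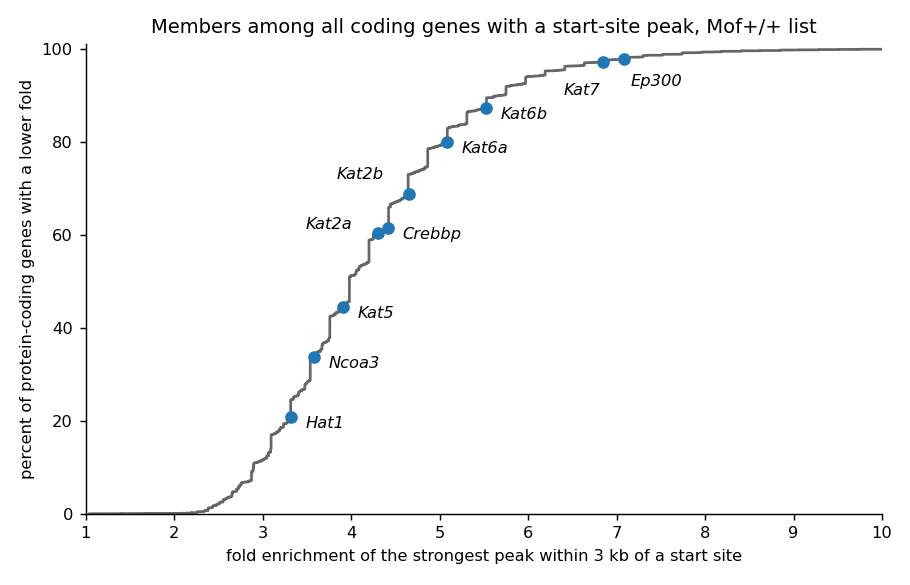
Cumulative curve of the fold enrichment of the strongest peak within 3 kb of a start site, over the coding genes that have one in the Mof+/+ list, with the 10 genes as points; the vertical axis is the percent of those genes with a lower fold. Hat1 sits at 20.8%, Kat7 and Ep300 at 97.1% and 97.7%, and the other genes between them; the steps arise because the fold is built on whole fragments.

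The genes without a Mof+/- peak were read against what a Mof+/- peak required. The lowest background in the Mof+/- list was 2.26, 0.642 times that of the Mof+/+ list, and its weakest peak had a −log10 p-value of 4.72, so at that background at least 11 fragments were needed. With its fragments scaled by the same ratio, Ep300 would have had 19.9 of the 11 it needed and Kat7 22.5 of 12. Kat6b would have had 15.4, Kat6a 14.1, Kat2a and Kat2b 12.8 each, and Crebbp 12.2, all of 11. The Kat2a value is that of the upstream peak in Hspb9, and the peak over the Kat2a start would have had 10.9 of 11. Kat5 at 10.9 of 11, Ncoa3 at 12.8 of 13 and Hat1 at 8.99 of 11 lay below the number needed, and the upper bounds of their counting intervals, 17.5, 19.8 and 15.1, lay above it.

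Thus 7 of the 10 would have passed at an unaltered ratio of fragments to background. At the lower bound of the counting interval 2 would have, Kat7 and Ep300. Each gene entered by its strongest called Mof+/+ peak. That choice can raise the scaled fragments, and the intervals do not cover it, so these counts may be too high. With the peak over its own start for Kat2a, 6 of the 10 would have passed. Of the 9397 coding genes with a Mof+/+ start-site peak, fragments could be solved for 9394. Of these 9394, 4964 (52.8%) would have passed, and 352 (3.75%) had a Mof+/- start-site peak. They too entered by their strongest called Mof+/+ peak, so the 52.8% may likewise be too high. Of the 269 genes whose fold was at least that of Kat7, 27.1% had one, so a strong Mof+/+ peak with no Mof+/- peak was the more frequent case. The nearest Mof+/- peak lay 34.3 kb from a Kat5 peak, 62.4 kb from that of Ep300, 138 kb from that of Hat1 and 160 kb from that of Kat7, and farther for the rest, up to 18209 kb for Crebbp. The Mof+/- list as a whole was short, with 731 peaks, and with 1 list per genotype a weaker immunoprecipitation, fewer cells with MOF on these genes and less MOF per cell cannot be told apart.

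**Figure D3:**
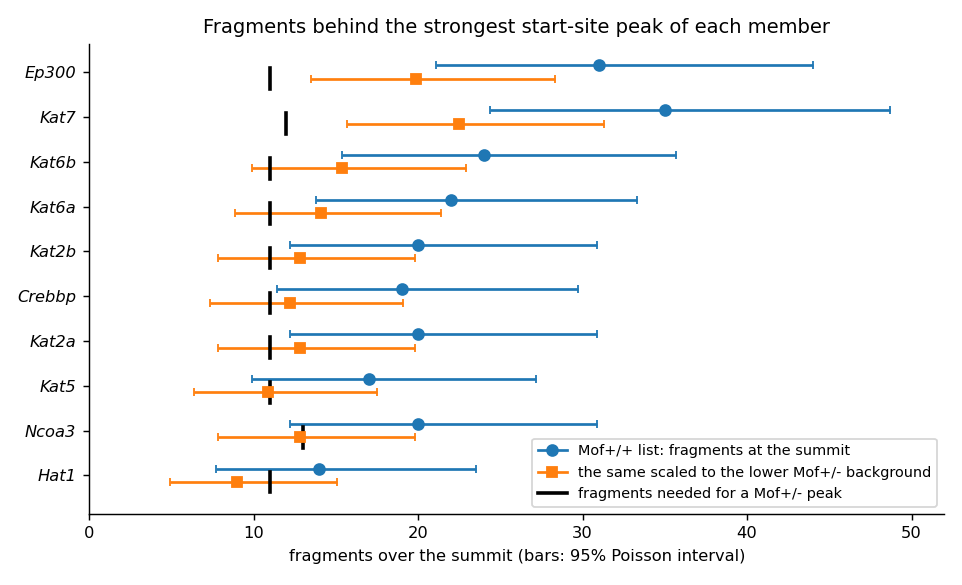
Fragments over the summit of the strongest start-site peak of each gene in the Mof+/+ list (circles), the same scaled to the lower background of the Mof+/- list (squares), and the fragments a Mof+/- peak needs there (black ticks), on a horizontal axis of fragments with bars for the 95% Poisson interval. Kat7 and Ep300 have squares and whole intervals above their ticks, 5 more have the square above it (Kat2a among them by its upstream peak in Hspb9), and Kat5, Ncoa3 and Hat1 have the square below.

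The start sites of the 10 genes were rich in CpG sites. Within 500 bp on either side of the principal start the median was 86.0 CpG sites, from 47 in Kat2a to 147 in Crebbp, against a median of 43.0 over all coding genes. In all coding genes the share with a Mof+/+ peak within 3 kb of a start rose with this count, from 3.14% in the lowest of 10 bins to 76.0% in the highest. Among the 10354 genes with at least 47 CpG sites 70.0% had a Mof+/+ peak by the rule, and among the 6966 that also had at least the shortest length and the smallest number of start sites found in the 10 genes 72.5% did. In these sets 2.99% and 2.43% had a Mof+/- peak. The 10 of 10 is thus to be read against about these shares rather than against 44.5%, and the sets were chosen after the data had been seen. The number of sites for the cutting enzyme, RGCY, had a median of 29.5 around the starts of the 10 genes and 24.0 over all genes, and its part in the peaks was not tested.

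**Figure D4:**
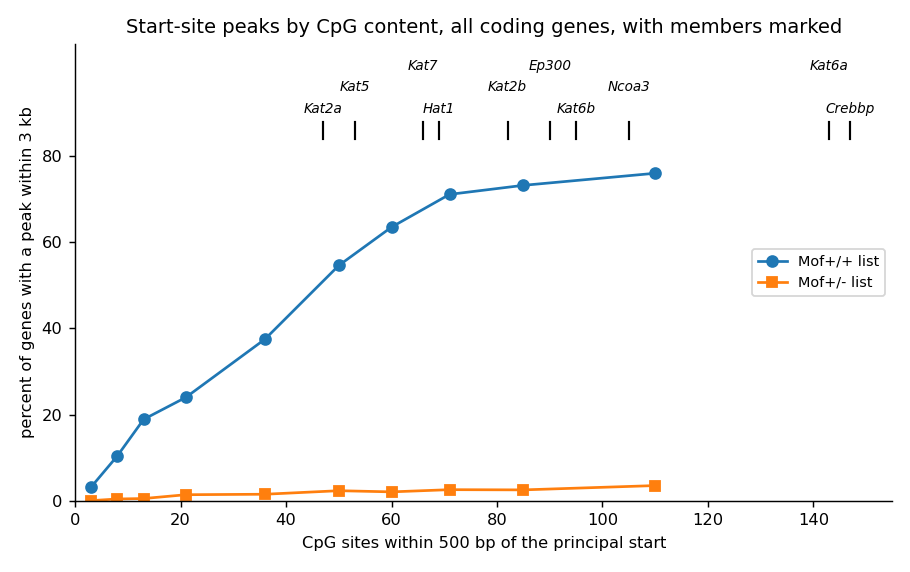
Percent of coding genes with a peak within 3 kb of a start site (vertical axis) by CpG sites within 500 bp of the principal start (horizontal axis, medians of 10 bins of genes), for the Mof+/+ list (circles) and the Mof+/- list (squares). Ticks above the curves mark the CpG counts of the 10 genes, which lie from 47 to 147, where the Mof+/+ curve rises from 54.6% to 76.0%.

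Short motifs were counted on both strands in a single 300 bp promoter per gene, the first listed for RefSeq (GRCm38). These promoters held 8 of the 10 genes and 16522 coding genes in all. The 8 genes have 11 listed promoters, so some were not searched. CCAAT was found in 4 of the 8 (Hat1, Kat2b, Kat5 and Kat7), against 38.7% of all promoters, and GGGCGG, the GC box, in 4 (Crebbp, Ep300, Hat1 and Kat6b), against 48.0%. The ETS core CCGGAAG was in 3 (Hat1, Kat5 and Kat7), against 12.3%, and the E box CACGTG in 2 (Hat1 and Kat5), against 8.11%. GCGCATGC, a core of the NRF1 motif, was in 0 against 3.76%, and TATAAA in 0 against 12.9%. None of these motifs contains another. The shares are over all promoters and were not matched for CpG content, in which the 10 genes are rich. Kat6a and Ncoa3 were not among the promoters.

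Partner genes of the same complexes were examined in the same way. Of 54 genes, 47 (87.0%, Wilson 95% interval 75.6 to 93.6) had a Mof+/+ peak within 3 kb of a start site, with a median fold of 3.96 among those, and 3 had a Mof+/- peak. Over all coding genes the shares were 42.8% and 1.68%, and 68.6% of the genes with at least 47 CpG sites had a Mof+/+ peak there, a set that was not matched to the partners. In SAGA, the complex of Kat2a and Kat2b with a deubiquitinating module, 15 of 15 had a peak, led by Taf10 at a fold of 5.75 and Taf6l at 5.53, both TAF-family subunits. The Taf6l value belongs to a peak with its summit 636 bp from the start of the neighbour Tmem179b, and the peak 4 bp from a Taf6l start had a fold of 2.76 and 13 fragments. In ATAC it was 7 of 7, led by Zzz3 at 4.64 and the YEATS-domain reader Yeats2 at 4.22. In the TIP60 complex of Kat5 it was 12 of 15, led by the chromodomain protein Morf4l1 at 7.52 and the scaffold Epc1 at 6.51, and Brd8, Dmap1 and Ruvbl1 had no peak in either list.

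Subunits of the complexes of Kat6a, Kat6b or Kat7 were counted together, as BRPF and JADE scaffolds, ING readers and Meaf6. Of these, 7 of 9 had a peak, led by Brpf3 at 5.81 and Jade2 at 5.53, and Meaf6 and Jade3 had none. The histone chaperones Rbbp4 at 5.49 and Rbbp7 at 3.54, partners of Hat1, made 2 of 2. Of the p160 coactivators and binders of p300 and CBP 4 of 6 had one, led by the arginine methyltransferase Carm1 at 5.31 and Ncoa2 at 4.60, and Cited1 and Cited4 had none. Meaf6 and Jade3 had no peak although their starts held 92 and 103 CpG sites.

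**Figure D5:**
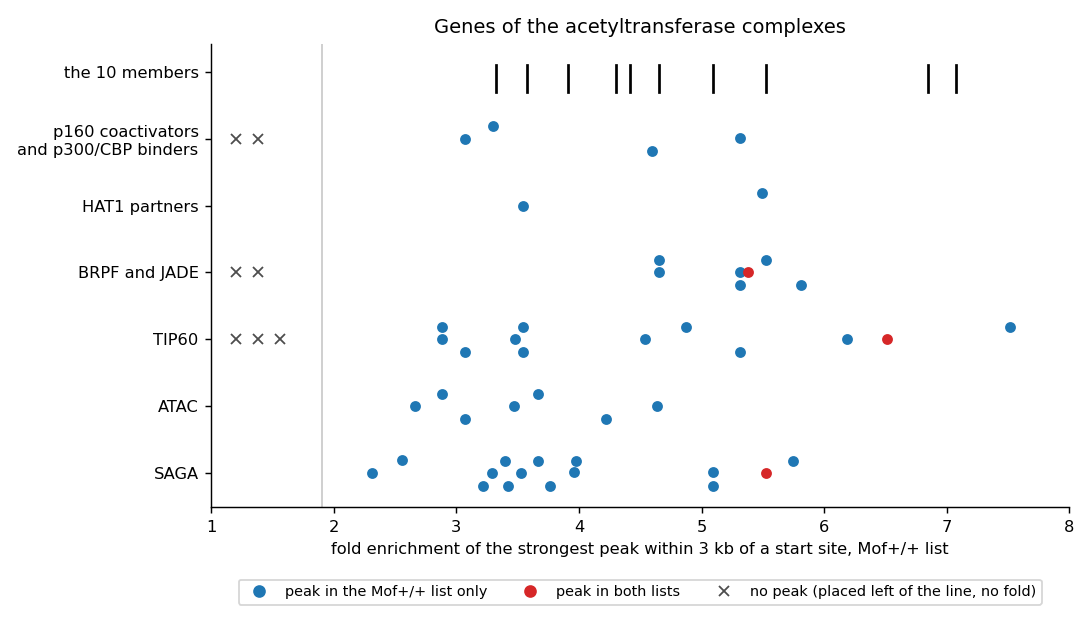
Fold enrichment in the Mof+/+ list of the strongest peak within 3 kb of a start site (horizontal axis) for 54 partner genes grouped by complex, as points, and for the 10 acetyltransferase genes, as ticks on top. The 3 genes with a peak in both lists are red, and the 7 without a peak are crosses left of the grey line with no fold value.

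The 3 partners with a Mof+/- peak show what a peak in both lists looked like. At Taf6l the Mof+/- peak, chr19:8774749-8775150, had a fold of 4.91 and 15 fragments and lay inside a Mof+/+ peak with a fold of 5.53 and 24 fragments. Its summit was 1838 bp from an annotated start of Taf6l and 657 bp from that of Tmem179b. The Mof+/+ peak at another start of Taf6l, chr19:8785765-8786253, had no Mof+/- counterpart. At Brpf1 the Mof+/- peak, chr6:113307106-113307403, covered the start with a fold of 4.07 and 13 fragments, within a Mof+/+ peak with a fold of 5.38 and 24 fragments. At Epc1 the Mof+/- peak had a fold of 4.66 and 15 fragments, its summit 260 bp from a start, within a Mof+/+ peak with a fold of 5.46 and 26 fragments. The stronger Mof+/+ peak of Epc1, with a fold of 6.51 and 32 fragments at another of its starts, had no Mof+/- counterpart. All 3 had lower Mof+/+ folds than Ep300 and Kat7, which had no Mof+/- peak.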

How the data were processed

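MOF ChIP-seq of visceral WAT was analysed from 1 deposited peak list per genotype, told apart by the list names. Per the study's methods, the authors mapped paired-end reads to GRCm38 with snakePipes and called peaks with MACS2 2.1.1.20160309.3 against input at a q-value of 0.1. The methods also describe joining peaks up to 1000 bp apart, but the deposited lists still held closer neighbours, for example at Kat2b, and were used as deposited. Whether reads of the replicates were pooled before calling is not given in the sources used here. The deposited fold enrichment is a ratio of fragments to background, and the −log10 p-values in the deposited lists, with the q-values derived from them, belong to the same summits. The H3 libraries were not analysed here. Chromatin was cut with CviKI-1, whose RGCY site takes any purine and any pyrimidine at its ends, and sonicated, so fragment ends depend partly on the sequence.

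From fold and p-value, the whole number of fragments and the background were solved (tolerance 0.001 in −log10 p) for 19769 of 19773 and 727 of 731 peaks, and the solution was tested on simulated data. Intervals are exact Poisson at 95% for fragments, exact binomial for ratios of fragments, and Wilson for shares; they cover counting error only, since PCR copies are not independent. Genes came from GENCODE M21. Of the 10 genes, 8 matched the RefSeq promoter table, whose 11 sequences for them were identical to the genome. The 10 genes are named with every peak. Partners are named when they are the 2 strongest of their list, have a Mof+/- peak or lack a Mof+/+ peak. Ncoa1 is named as a p160 paralog of Ncoa3. The members, lists and tests were chosen with earlier results of these data known. A planned exact test of fragments at peaks shared by both lists could not be run, since no Mof+/- peak met a member. Python 3.11.15, SciPy 1.17.1, pandas 2.3.3 and pysam 0.24.0 were used. Sequences under some other peaks are not reported here.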

Additional observations from a re-analysis of the deposited data

How the results depend on the processing

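Of 70 alternatives computed, 65 stayed within their limits. The number of Mof+/+ peaks at the 10 genes fell from 27 to 17 with start sites only, to 12 with q-values up to 0.001 only, and to 17 with the weakest Mof+/- p-value applied to both lists, each of which admits fewer peaks. The share of coding genes with a Mof+/+ peak rose from 44.5% to 70.0% among genes with at least the lowest CpG count of the 10, and to 72.5% when gene length and number of start sites also had to reach the lowest of the 10; these sets were chosen after seeing the data. The fold of Kat2a fell from 4.30 to 3.98 with a window of 1 kb. No paired analysis was possible because the lists carry no replicate numbers, and leaving out each replicate was not run for the same reason. The depth, 11 to 35 fragments at a peak, limits every ranking of these genes.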
